A study of Mus musculus with 15 samples.

Results

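The genes described here are the 2 quiescin sulfhydryl oxidases (Qsox1 and Qsox2), the 5 lysyl oxidases (Lox and Loxl1 to Loxl4) and the 3 lysyl hydroxylases (Plod1, Plod2 and Plod3) of the mouse. They were found by matching the Ensembl identifiers of a table of 43352 genes to these symbols. All 10 were in the table, and all 10 were among the 19645 genes with enough counts to be tested. The samples were perivascular adipose tissue (PVAT), the fat that surrounds the aorta, of mice aged 11 weeks. Thoracic PVAT (tPVAT) and abdominal PVAT (aPVAT) were each taken from 2 genotypes. Control mice carried Prdm16flox, Prdm16 alleles with loxP sites. The other mice, called cKO here, were Prdm16flox, AdipoQCre+: they carried the same alleles and a Cre recombinase under the control of Adipoq, a gene of fat cells, so that deletion is directed to adipocytes and not to the other cells of the tissue. Libraries of tPVAT were numbered 1 to 4 in each genotype, and those of aPVAT 1 to 4 in controls and 1, 3 and 4 in cKO, 15 in all. Whether the samples within a group came from different animals is not stated in the labels, so p-values measure only the spread between these samples, which may be technical.

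A fibrillar collagen is built and joined in steps that these enzymes serve. In the endoplasmic reticulum the lysyl hydroxylases add hydroxyl groups to lysines of the new chain, and outside the cell the lysyl oxidases turn lysines and hydroxylysines of collagen, and lysines of elastin, into reactive aldehydes from which covalent crosslinks form. Quiescin sulfhydryl oxidases join cysteines into disulfide bonds in the secretory pathway and, when secreted, outside the cell. In the wall of the aorta and the tissue around it, crosslinked collagen and elastin carry the mechanical load.

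Total counts were 37.8 to 68.7 M counts per library. Prdm16 itself stood at 41.1 to 55.6 CPM (counts scaled to the library size with TMM factors) in tPVAT controls and 21.2 to 23.8 CPM in tPVAT cKO, and at 21.4 to 26.8 CPM in aPVAT controls and 14.7 to 18.3 CPM in aPVAT cKO. The adipocyte gene Adipoq was high in every library (807 to 1840 CPM). Ucp1, the uncoupling protein of thermogenic fat, ranged from 5930 to 6580 CPM in tPVAT controls and from 3500 to 4420 CPM in tPVAT cKO, and from 363 to 731 CPM in aPVAT controls and from 3.15 to 47.8 CPM in aPVAT cKO. Genes of the mitochondrial genome took 33.4% to 36.4% of the counts in tPVAT controls and 26.5% to 31.6% in tPVAT cKO, and 13.0% to 16.0% in aPVAT controls and 13.3% to 13.9% in aPVAT cKO. The part of the Ucp1 shift in the genotype differences of the members was not tested. Separately, a fit without the genes of the mitochondrial genome and the structural RNA genes changed no genotype call of the 10 members. Ucp1 stayed in that fit, so it does not bear on the Ucp1 shift. Of the counts, structural RNA genes made up 0.985% in aPVAT control 2 and 2.45% in aPVAT cKO 4, against at most 0.233% in the other libraries; calls that changed without these 2 libraries are given with both values.

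Qsox1 (ENSMUSG00000033684) lies on chromosome 1 from 155776029 to 155812889 on the minus strand (GRCm38, which is mm10). The 250 bases before its RefSeq start on GRCm38.p6, at chr1:155812900-155813149 on the minus strand, and those of Plod1, at chr4:147936777-147937026 on the minus strand, are shown because they hold no annotated exon bases. Both lie outside the exons of the gene. They are written 5′ to 3′, with capitals for the GC box GGGCGG, searched on both strands, so that CCGCCC marks a match on the other strand.
Qsox1: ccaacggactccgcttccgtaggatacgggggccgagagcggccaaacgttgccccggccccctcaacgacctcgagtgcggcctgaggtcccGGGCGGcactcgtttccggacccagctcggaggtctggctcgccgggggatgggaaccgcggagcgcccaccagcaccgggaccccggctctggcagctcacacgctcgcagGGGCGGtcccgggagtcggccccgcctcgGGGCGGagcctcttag
Plod1: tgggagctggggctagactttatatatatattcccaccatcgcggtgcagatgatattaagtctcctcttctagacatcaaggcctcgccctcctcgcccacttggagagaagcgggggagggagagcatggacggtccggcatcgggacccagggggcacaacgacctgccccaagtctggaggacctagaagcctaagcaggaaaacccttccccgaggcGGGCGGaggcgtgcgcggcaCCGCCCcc

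The Qsox1 window had 3 GC boxes, 31 CpG dinucleotides and 73.6% G and C. The Plod1 window had 2 GC boxes, 16 CpG dinucleotides and 61.6% G and C. Over the 32851 promoters of that length in the RefSeq table, 32.7% had at least 1 GC box, and the medians were 6 CpG dinucleotides and 52.4% G and C. The letters TATAAA, searched on both strands, occurred 1 time before Plod1 and not before Qsox1, and were found in 12.4% of all promoters. Neither window held CCAAT (33.8% of all promoters) or CACGTG (6.0%) on either strand. The table held 5 of the 10 genes, namely Qsox1, Qsox2, Loxl4, Plod1 and Plod3. The windows of Loxl4, Plod3 and Qsox2 include 7, 208 and 126 exon bases and are not shown. In that order they had 3, 0 and 7 GC boxes, 27, 17 and 21 CpG dinucleotides, and 76.0%, 55.6% and 65.2% G and C. None of these genes passed the edgeR test for genotype in either depot. Whether any feature of a window bears on a change was not tested.

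Levels of different genes were compared as CPM per kilobase of exon, over the summed length of all annotated exons of a gene. Loxl1, a lysyl oxidase best known for its role in elastic fibres, had the highest median of the 10 genes in all 4 groups on this scale, with 30.3 CPM per kb in tPVAT controls, 22.0 in tPVAT cKO, 19.7 in aPVAT controls and 14 in aPVAT cKO. Loxl4 was the lowest in all 4 groups, at 0.538 to 0.792 CPM per kb. Qsox1 had rank 5 of 10 in both control groups (4.05 CPM per kb in tPVAT and 6.41 in aPVAT), rank 2 in tPVAT cKO (9.13) and rank 3 in aPVAT cKO (9.48). These ranks depend on the length that is used. The exons of Qsox1 together span 8291 bases, and its longest transcript is 3395 bases. With the longest transcript of each gene, Qsox1 ranked 5 in tPVAT controls, 3 in aPVAT controls and 1 in both cKO groups. Comparisons of a gene with itself do not depend on its length.

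**Figure D1:**
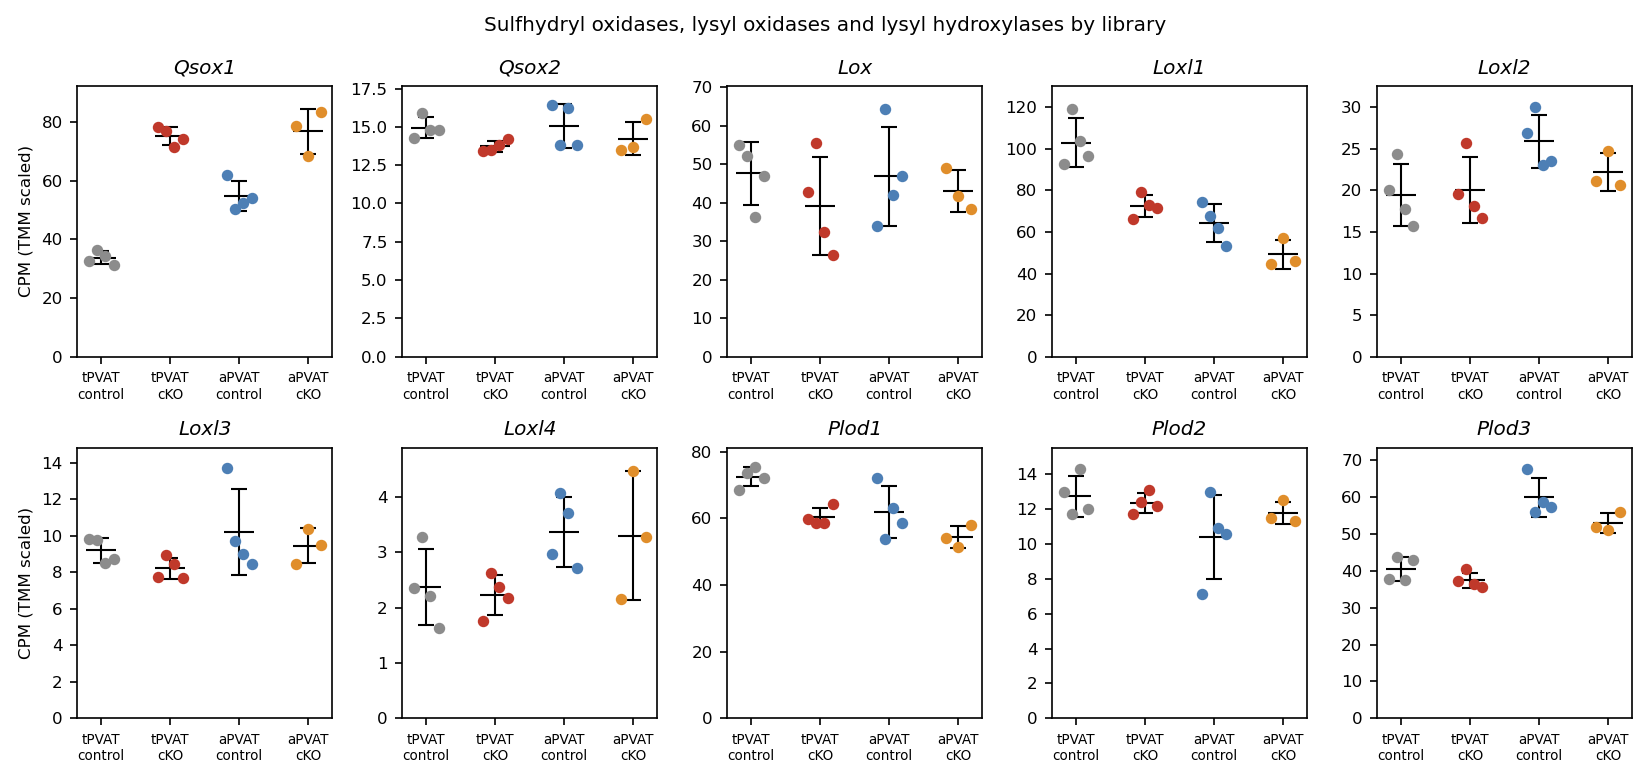
TMM-scaled CPM (vertical axes, each from 0) of the 10 genes in the 4 groups of depot and genotype; points are libraries, the long bar is the group mean and the short bars 1 SD (n = 4, 4, 4 and 3). The Qsox1 points of tPVAT controls (31.4 to 36.4 CPM) lie below all others, and those of both cKO groups (68.5 to 83.4 CPM) above all controls.

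Members that passed the test were counted beside the share of all genes that passed it. In tPVAT, 3 of the 10 passed the test (edgeR quasi-likelihood F test, adjusted p under 0.05 over all genes), 1 higher in cKO (Qsox1) and 2 lower (Loxl1 and Plod1), where 12% of all genes passed, 5.44% higher and 6.61% lower. The libraries of the genotypes did not overlap for 4 of the 10 (these 3 and Qsox2), against 23.2% of all genes. The median change of the 10 on the log2 scale was −0.11 against −0.01 over all genes. In aPVAT, 1 of the 10 passed, higher in cKO (Qsox1), where 1.53% of all genes passed, 0.743% higher and 0.789% lower. There the genotypes did not overlap for 2 of the 10 (Qsox1 and Plod3), against 9.56% of all genes. The difference of the genotype effects between depots was called for 1 of the 10 (Qsox1), where 0.784% of all genes were called, 0.158% with the higher and 0.626% with the lower effect in aPVAT.

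Between depots, 5 of the 10 members passed in controls (Qsox1, Loxl2 and Plod3 higher in aPVAT, Loxl1 and Plod1 lower), which is close to the 56.6% of all genes that passed, 29.3% higher and 27.3% lower. Their libraries did not overlap for 3 of the 10 (Qsox1, Loxl1 and Plod3), against 49.5% of all genes. In cKO 2 of the 10 passed (Plod3 higher, Loxl1 lower), where 52.6% of all genes passed, 27.2% higher and 25.4% lower, and 3 did not overlap (Loxl1, Plod1 and Plod3), against 55% of all genes.

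Qsox1 had the largest change of the 10 members for genotype in tPVAT and in aPVAT. It stood at 32.8, 36.4, 34.5 and 31.4 CPM in tPVAT controls 1 to 4. In tPVAT cKO 1 to 4 it stood at 78.5, 76.9, 71.6 and 74.4 CPM. Libraries of aPVAT controls 1 to 4 gave 62.0, 50.3, 52.4 and 54.0 CPM, and those of aPVAT cKO 1, 3 and 4 gave 78.6, 68.5 and 83.4 CPM. Every cKO library was thus above every control library, and among controls every aPVAT library was above every tPVAT library. The group means rose in the order tPVAT control (33.7 ± 2.17 CPM, SD, n = 4), aPVAT control (54.7 ± 5.13, n = 4), tPVAT cKO (75.4 ± 3.0, n = 4) and aPVAT cKO (76.8 ± 7.59, n = 3). The last 2 groups overlapped and did not differ beyond their spread.

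In tPVAT the cKO libraries had 2.23 times the Qsox1 level of the controls (log2 fold change 1.16, SE 0.0787, edgeR quasi-likelihood F test, Benjamini-Hochberg adjusted p = 1.05e-07). In aPVAT the ratio was 1.41 (0.49, SE 0.0828, edgeR adjusted p = 0.00522), but the call was lost when the 8 tPVAT libraries were left out of the fit (0.51, adjusted p = 0.0708). The difference between these changes, the aPVAT effect minus the tPVAT effect, was tested as an interaction: it was −0.67 (SE 0.114, 95% interval −0.91 to −0.43, edgeR adjusted p = 0.00741). Between depots, controls had 1.62 times as much Qsox1 in aPVAT as in tPVAT (0.70, SE 0.0781, edgeR adjusted p = 1.68e-06). In cKO the depots did not differ past the threshold (0.03, 95% interval −0.15 to 0.20, edgeR adjusted p = 0.80). The comparisons of genotype and of depot share libraries, so these values are not independent of each other.

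The summed level of 10 general adipocyte genes followed the same order of group means as Qsox1. It was 17900 to 19000 CPM in tPVAT controls, 22500 to 24600 CPM in aPVAT controls, 24300 to 25300 CPM in tPVAT cKO and 24300 to 29900 CPM in aPVAT cKO. Of the 10 genes, 4 rose and none fell in cKO of tPVAT, none passed the edgeR test in cKO of aPVAT (1 had an unadjusted p under 0.05, DESeq2 called 1 and voom 0), and 4 were higher and 2 lower in aPVAT than in tPVAT of controls. In cKO, 4 of the 10 were higher and 4 lower in aPVAT than in tPVAT (median −0.12 against 0.04 over all genes). Their median log2 change for genotype was 0.34 in tPVAT and 0.01 in aPVAT. The order of the sum was not that of every adipocyte gene. Mean Adipoq was 836 CPM in tPVAT controls, 1570 in aPVAT controls, 1110 in tPVAT cKO and 1560 in aPVAT cKO. None of the 10 genes was under 1 CPM throughout a group, and the part of adipocyte RNA in the Qsox1 differences was not tested. Counts of whole tissue cannot tell fewer cells of a type apart from less RNA of a gene per cell, for Qsox1 or for any gene below.

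Qsox2, the other sulfhydryl oxidase, was at 13.4 to 16.4 CPM in all 15 libraries. Its 4 tPVAT cKO libraries (13.4, 13.5, 13.8 and 14.2 CPM) lay just below the 4 tPVAT controls (14.3, 15.9, 14.8 and 14.8 CPM), and the difference did not pass the test (−0.12, SE 0.0752, 95% interval −0.28 to 0.04, edgeR adjusted p = 0.323). In aPVAT the genotypes overlapped (−0.08, 95% interval −0.25 to 0.09, edgeR adjusted p = 0.71). The make-up of the pair differed between groups, and of the pair only Qsox1 passed a test. Per kb of exon, Qsox1 was 55.8% ± 1.0 of the sum of both in tPVAT controls, 67.0% ± 1.86 in aPVAT controls, 75.4% ± 1.16 in tPVAT cKO and 75.1% ± 1.48 in aPVAT cKO (SD, n = 4, 4, 4 and 3). With the longest transcripts as lengths these shares were 72.7%, 81.1%, 86.6% and 86.4%.

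**Figure D2:**
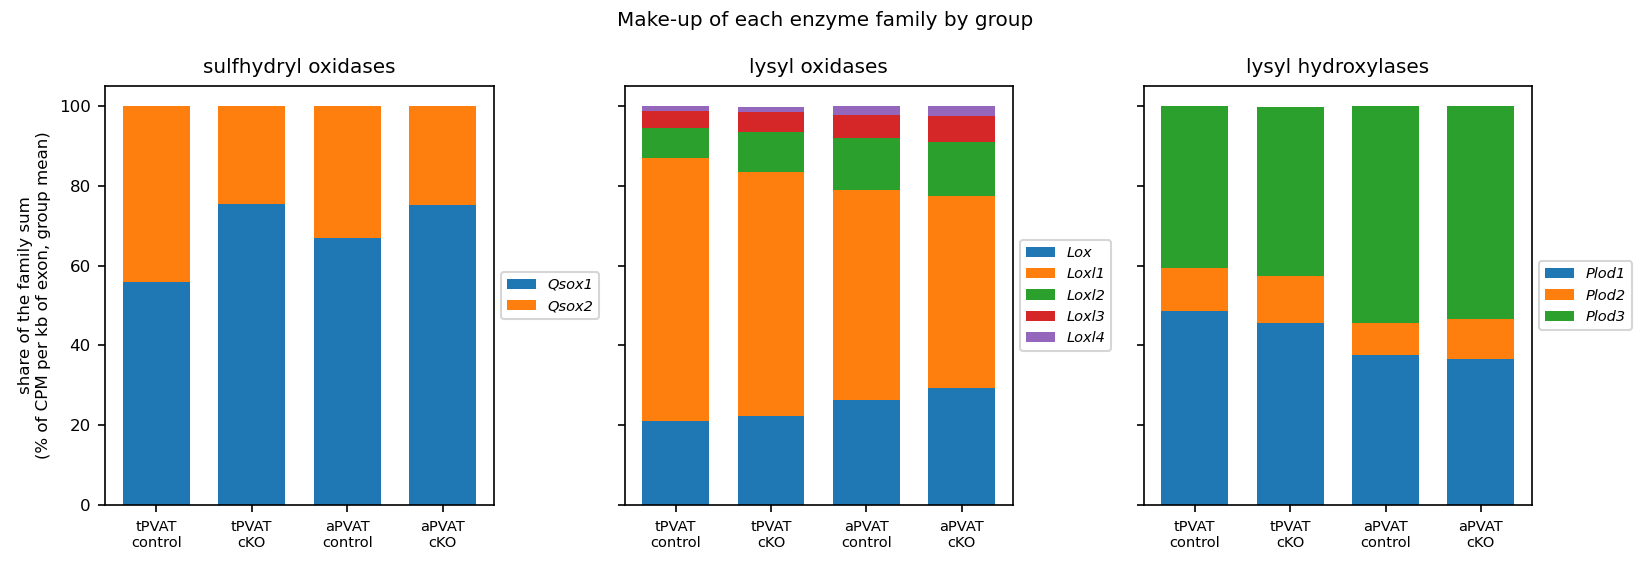
Share of each gene in the summed CPM per kb of exon of its enzyme family (vertical axis, %, mean over the libraries of a group) in the 4 groups. Qsox1 makes up 55.8% of the sulfhydryl oxidases in tPVAT controls and 75.4% in tPVAT cKO, Loxl1 is the largest part of the lysyl oxidases in every group (48.3% to 65.9%), and Plod1 and Plod3 change places between the depots.

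Among the lysyl oxidases, Loxl1 fell in cKO of tPVAT, and no other lysyl oxidase passed the test in either depot. Loxl1 (ENSMUSG00000032334, chromosome 9, 58287738 to 58313186, minus strand) stood at 92.7, 119, 104 and 96.4 CPM in tPVAT controls 1 to 4 and at 66.5, 79.1, 73.2 and 71.7 CPM in tPVAT cKO 1 to 4. Every tPVAT cKO library was below every tPVAT control. In aPVAT, controls 1 to 4 had 74.4, 67.7, 61.9 and 53.1 CPM, and cKO 1, 3 and 4 had 44.5, 57.3 and 46.0 CPM. Here cKO 3 lay above control 4, so the groups overlapped.

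The Loxl1 level in cKO was 0.707 times that of controls in tPVAT (log2 fold change −0.50, SE 0.109, edgeR adjusted p = 0.0066) and 0.767 times in aPVAT, where it did not pass the test (−0.38, SE 0.119, 95% interval −0.64 to −0.13, edgeR adjusted p = 0.157). The difference between the 2 changes did not pass either (0.12, SE 0.161, 95% interval −0.22 to 0.46, edgeR adjusted p = 0.938), so an effect of genotype confined to tPVAT was not shown. Loxl1 was lower in aPVAT than in tPVAT in both genotypes, with a log2 difference of −0.68 in controls (SE 0.109, edgeR adjusted p = 7.21e-05) and −0.56 in cKO (SE 0.119, edgeR adjusted p = 0.00105), and in neither genotype did the depots overlap. From high to low, the group means ran from tPVAT control through tPVAT cKO and aPVAT control to aPVAT cKO. Neighbours in that order overlapped for tPVAT cKO and aPVAT controls and for the 2 aPVAT groups. Smooth muscle markers (10 genes, summed) stood at 2290 to 2980 CPM in tPVAT controls and 1970 to 2160 CPM in tPVAT cKO, where 1 of 10 fell and none rose, and at 1810 to 2910 CPM in aPVAT controls and 2180 to 2780 CPM in aPVAT cKO. Fibroblast and progenitor markers (11 genes) summed to 1820 to 2240 CPM in tPVAT controls and 1560 to 2110 CPM in tPVAT cKO, with 1 of 11 lower. Endothelial markers (10 genes) summed to 1080 to 1240 and 963 to 1030 CPM there, with 3 of 10 lower, against 6.61% of all genes lower. In the order smooth muscle, fibroblast and endothelial, 6, 2 and 7 markers had an unadjusted p under 0.05 in tPVAT. DESeq2 called 1, 2 and 6 of the markers, and voom 4, 2 and 7. Of the 19645 genes tested, DESeq2 called 2997 and voom 4080 for genotype in tPVAT. In aPVAT controls and cKO, fibroblast markers summed to 3100 to 3900 and 2640 to 3400 CPM. Endothelial markers summed to 1590 to 2050 and 1470 to 1760 CPM there. No marker of these 3 lists was under 1 CPM throughout a group, and their part in the Loxl1 difference was not tested.

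Lox, the founding lysyl oxidase that crosslinks collagen and elastin, varied more between libraries of a group than between groups. Its values were 55.0, 52.3, 36.3 and 47.0 CPM in tPVAT controls and 42.8, 55.5, 32.4 and 26.4 CPM in tPVAT cKO. In aPVAT, controls had 34.1, 64.5, 42.0 and 46.9 CPM, and cKO 1, 3 and 4 had 49.0, 41.8 and 38.3 CPM. All 4 groups overlapped. The coefficient of variation within a group was 12.6% to 32.5%, against 3.99% to 9.87% for Qsox1, and the 95% interval of the genotype difference in tPVAT ran from −0.74 to 0.18 (log2), which holds both 0 and the change seen for Loxl1.

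Loxl2, which also oxidises collagen of basement membranes, was at 15.7 to 24.4 CPM in tPVAT controls, 16.7 to 25.7 CPM in tPVAT cKO, 23.1 to 30.0 CPM in aPVAT controls and 20.7 to 24.8 CPM in aPVAT cKO. Genotype made no called difference in tPVAT (0.04, 95% interval −0.27 to 0.34) or in aPVAT (−0.22, 95% interval −0.55 to 0.11). It was called higher in aPVAT than in tPVAT of controls (0.41, SE 0.144, edgeR adjusted p = 0.0241), but the libraries of the depots overlapped, and it missed the threshold when aPVAT control 2 (adjusted p = 0.0724), tPVAT control 3 (0.0669) or tPVAT control 4 (0.0826) was left out, without the 2 libraries with the most structural RNA (0.078) and with only control libraries in the fit (0.0564). Loxl3 stayed between 7.71 and 13.7 CPM and Loxl4 between 1.63 and 4.47 CPM over all libraries, and neither passed the edgeR test in any comparison. Loxl4 rested on as few as 71 counts in a library, and its depot difference had wide intervals (0.01 to 0.99 in controls and 0.04 to 1.09 in cKO). The difference was 0.50 in controls (edgeR adjusted p = 0.0786) and 0.57 in cKO (edgeR adjusted p = 0.0677). It became a call in both genotypes with upper quartile scaling (0.60, adjusted p = 0.0393, and 0.67, adjusted p = 0.0343), with the number as a block (0.51, adjusted p = 0.0228, and 0.66, adjusted p = 0.0109) and with genotype and number together as a block (0.50, adjusted p = 0.0128, and 0.61, adjusted p = 0.0121). Leaving out aPVAT cKO 1 also made it a call in controls (0.50, adjusted p = 0.0486) and in cKO (0.80, adjusted p = 0.0132), as did leaving out tPVAT control 2 in controls (0.70, adjusted p = 0.0218).

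Among the lysyl hydroxylases, Plod3 differed more by depot than by genotype, whereas the values of Plod1 were of similar size for both. Plod1 (ENSMUSG00000019055, chromosome 4, 147909753 to 147936767, minus strand), which hydroxylates lysines in the helical part of collagen chains, stood at 68.6, 73.7, 75.4 and 72.2 CPM in tPVAT controls 1 to 4 and at 59.8, 58.5, 58.5 and 64.3 CPM in tPVAT cKO 1 to 4. Every tPVAT cKO library was below every tPVAT control. Controls 1 to 4 of aPVAT had 72.2, 53.7, 63.0 and 58.6 CPM, and cKO 1, 3 and 4 had 54.0, 51.3 and 57.9 CPM, so the genotypes overlapped there.

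The fall of Plod1 in tPVAT was small (−0.27, SE 0.0789, edgeR adjusted p = 0.038) and close to the threshold. With the sample number as a block the adjusted p was 0.0501, and with no filter on low counts it was 0.0578. Leaving out tPVAT cKO 1, 2 or 3 or tPVAT control 2, 3 or 4 also took it past 0.05 (0.0875, 0.0658, 0.0973, 0.0878, 0.0947 and 0.0783 in that order), with log2 fold changes of −0.27 to −0.25. In aPVAT the difference was −0.19 (SE 0.0853, edgeR adjusted p = 0.385), and the 2 changes did not differ past the threshold (0.08, 95% interval −0.17 to 0.33). Plod1 was called lower in aPVAT than in tPVAT of controls (−0.23, SE 0.0788, edgeR adjusted p = 0.0217), with overlapping libraries, and this call was lost with upper quartile scaling (−0.13, adjusted p = 0.139), with no filter on low counts (0.0585), without the 2 libraries with the most structural RNA (0.0665), and without aPVAT control 2 (0.0665), aPVAT control 4 (0.0637) or tPVAT control 3 (0.057).

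Plod3 (ENSMUSG00000004846, chromosome 5, 136987019 to 136996648, plus strand) also carries the glycosyltransferase activity that puts sugars on hydroxylysines. It stood at 37.9, 43.7, 37.5 and 42.9 CPM in tPVAT controls and at 37.2, 40.4, 36.4 and 35.6 CPM in tPVAT cKO, against 67.7, 56.0, 58.7 and 57.3 CPM in aPVAT controls and 52.0, 51.0 and 56.0 CPM in aPVAT cKO 1, 3 and 4. Every aPVAT library was above every tPVAT library. The depot difference was 0.57 in controls (1.48 times, SE 0.0746, edgeR adjusted p = 9.37e-06) and 0.50 in cKO (1.41 times, SE 0.0799, edgeR adjusted p = 8.51e-05). Genotype gave smaller differences that did not pass the test, −0.11 in tPVAT (95% interval −0.27 to 0.05) and −0.18 in aPVAT (95% interval −0.35 to −0.01, edgeR adjusted p = 0.372). Exons of Plod3 overlap those of Znhit1 on the opposite strand (28.7 CPM on average), and those of Loxl3 overlap Htra2 (13.7 CPM). Also on the opposite strand, exons of Loxl2 overlap Gm27177 (1.71 CPM) and those of Plod2 overlap Gm38391 (0.578 CPM). The libraries were made with a stranded kit, but the strand setting of the counting is not given in the sources used here, so reads of these neighbours may be included. Plod2, whose hydroxylation of the ends of collagen chains leads to a more stable kind of crosslink, was the lowest of the 3 in every group (7.16 to 14.3 CPM over all libraries) and passed the edgeR test in no comparison. Its difference between depots of controls was close to the threshold (−0.30, SE 0.131, 95% interval −0.57 to −0.02, edgeR adjusted p = 0.0652), with overlapping libraries. It became a call with DESeq2 (−0.32, adjusted p = 0.0449), with voom and quality weights (−0.26, adjusted p = 0.0221), with the sample number as a block (−0.31, adjusted p = 0.0481), without aPVAT control 2 (−0.42, adjusted p = 0.00905) and without the 2 libraries with the most structural RNA (−0.42, adjusted p = 0.0109). Per kb, Plod3 made up 54.5% ± 0.852 of the lysyl hydroxylase sum in aPVAT controls and 40.6% ± 2.34 in tPVAT controls (SD, n = 4 each), and Plod1 37.5% ± 1.98 and 48.6% ± 1.25.

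**Figure D3:**
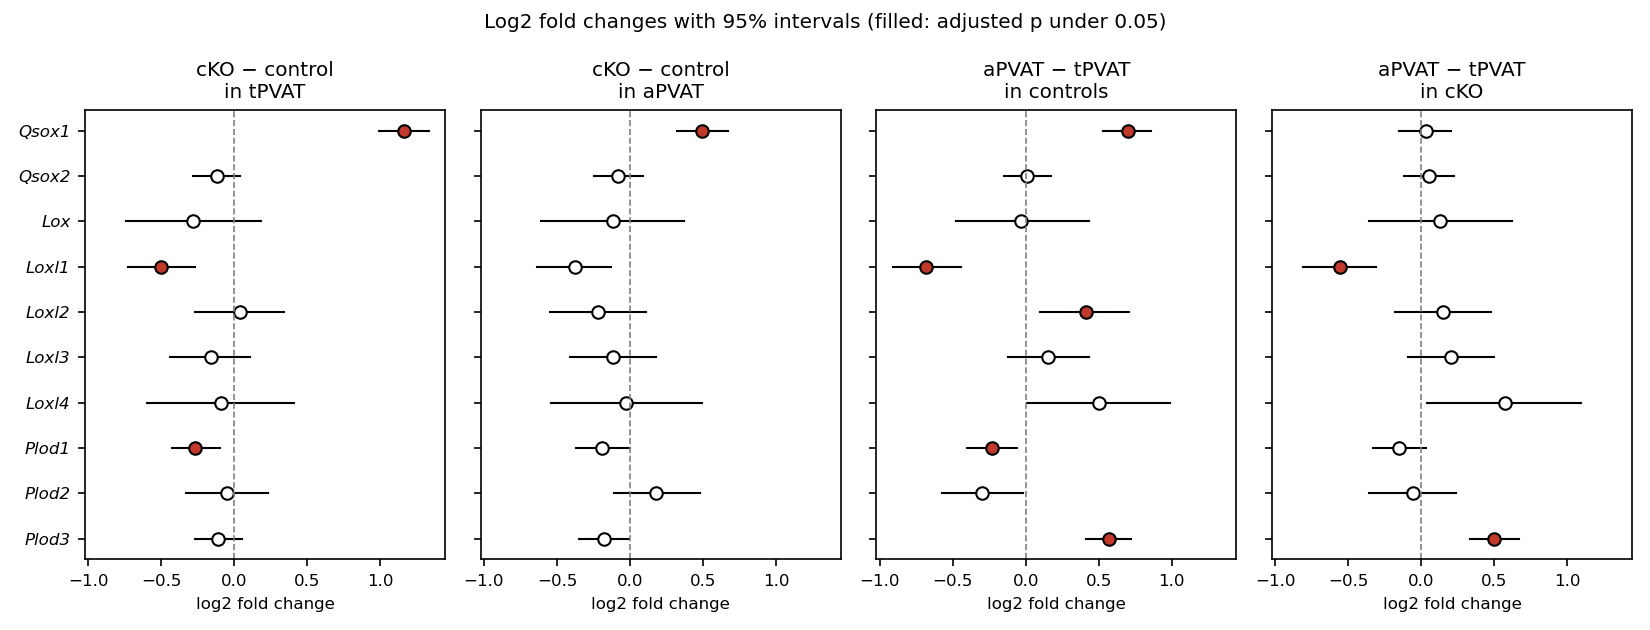
Log2 fold changes (horizontal axes) of the 10 genes in 4 comparisons, with 95% intervals; filled points passed an adjusted p of 0.05 over all genes tested. Qsox1 alone lies right of 0 in both genotype comparisons past the threshold (1.16 and 0.49), and in the depot comparisons Loxl1 lies left and Plod3 right of 0 in both genotypes.

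The scaling of the libraries bears on the depot values. Calls over all genes were 51.7% higher in aPVAT in both genotypes. With upper quartile scaling 61.6% were higher in controls and 62.4% in cKO, and the median over all genes moved from 0.04 to 0.14, which is the shift to set the depot values against. The depot values of Qsox1 in controls, and of Loxl1 and Plod3 in both genotypes, kept their sign and their call in all 26 alternatives tried, whereas the sign of the small values of Lox and Qsox2 in controls flipped with some scalings. The depots also differed in RNA of marker genes of cell types, where 29.3% of all genes were higher in aPVAT controls and 27.3% lower. Fibroblast and progenitor markers summed to 3100 to 3900 CPM in aPVAT controls and 1820 to 2240 CPM in tPVAT controls (7 of 11 higher, none lower). Macrophage markers summed to 705 to 968 and 406 to 458 CPM (8 of 8 higher). Schwann cell markers were higher for 8 of 8, lymphocyte markers for 6 of 8 and endothelial markers for 8 of 10, with 1 endothelial marker lower. Thermogenic markers were lower for 8 of 8, skeletal muscle markers for 6 of 8 (1 higher) and smooth muscle markers for 3 of 10 (1 higher). The part of these cell types, and of the mitochondrial share given above, in the depot differences of the members was not tested.

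Genes that work beside the members were read from 6 lists. The share of all genes with an unadjusted p under 0.05 was not counted. Counts at that threshold, here and for the markers, therefore have no share beside them. The counts of each tool are to be set against its calls over all 19645 genes. For genotype, edgeR, DESeq2 and voom called 2367, 2997 and 4080 in tPVAT and 301, 604 and 266 in aPVAT. None of 23 other collagen-modifying and processing enzymes (prolyl hydroxylases, procollagen proteinases, chaperones) passed the edgeR test for genotype in tPVAT (median −0.13 against −0.01 over all genes), where 4 had an unadjusted p under 0.05, DESeq2 called 2 and voom with quality weights 3. Of 24 genes listed for disulfide formation in the secretory pathway, a list that also holds the mitochondrial Gfer, 3 passed, a share near the 12% of all genes. Gpx8, an endoplasmic reticulum peroxidase, was at 85.8 ± 17.3 CPM in controls and rose to 133 ± 8.07 CPM (0.63, SE 0.129, edgeR adjusted p = 0.00424), and Gfer, a sulfhydryl oxidase of mitochondria, rose from 20.4 to 24.4 CPM (0.26, SE 0.0623). Pdia5, a protein disulfide isomerase, fell from 9.31 to 6.80 CPM (−0.45, SE 0.0938).

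Of 10 fibrillar collagen genes 1 passed in tPVAT, also near the share of all genes. Col5a3, a chain of collagen V, rose from 32.9 ± 5.59 to 86.1 ± 22.6 CPM (1.39, SE 0.165, edgeR adjusted p = 3.88e-05, n = 4 and 4). Its aPVAT levels were 68.3 ± 7.17 CPM for controls and 71.2 ± 8.23 CPM for cKO (n = 4 and 3), and its interaction was −1.33 (SE 0.241, edgeR adjusted p = 0.011), lost without the 2 libraries with the most structural RNA (−1.27, adjusted p = 0.0521). Basement membrane genes gave 1 rise (Nid1, nidogen, 0.32, lost without tPVAT control 3, adjusted p = 0.0537) and 3 falls (Lamc3, a laminin chain, −0.60; Agrn, agrin, −0.28, lost without tPVAT cKO 1, adjusted p = 0.0562; and Lama5, a laminin chain, −0.30, lost in 7 of 25 alternatives) of 22. Of 17 elastic fibre genes, which include substrates of Loxl1, 1 fell: Emilin1, from 27.9 to 22.7 CPM (−0.30, edgeR adjusted p = 0.0488), a call lost in 13 of 25 alternatives. Among these was the edgeR fit without the 2 libraries with the most structural RNA (−0.30, adjusted p = 0.0517). None of 13 collagen-binding proteoglycans and organisers passed with edgeR, where 3 had an unadjusted p under 0.05, DESeq2 called 1 and voom 4. For genotype in aPVAT the edgeR test called 0 of the 109 genes of the 6 lists, 21 had an unadjusted p under 0.05, DESeq2 called 1 and voom 0. Of the 10 fibrillar collagens, 5 had such an unadjusted p in aPVAT. They were Col1a1 (−0.43), Col1a2 (−0.38), Col3a1 (−0.41) and Col5a2 (−0.28), lower in cKO, and Col11a1 (0.38), higher in cKO. For scale, Plod1 with an unadjusted p of 0.0457 by the edgeR test had rank 2331 by p among the 19645 genes in that comparison.

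Between the depots, where 29.3% of all genes were higher in aPVAT and 27.3% lower in controls, the lists differed in their counts. In controls 14 of the 23 collagen-modifying enzymes were higher and none lower, with a median of 0.33 against 0.04 over all genes; Adamts2, a procollagen proteinase, had a log2 difference of 0.73 (SE 0.121). Fibrillar collagens were higher for 8 of 10 and lower for 2, with Col3a1 at a log2 difference of 1.03 (SE 0.157) and Col27a1 at −2.16 (SE 0.0891). Basement membrane genes were 12 higher and 1 lower of 22, elastic fibre genes 8 and 2 of 17, proteoglycans 6 and 3 of 13, and disulfide formation genes 10 and 6 of 24. In cKO the counts were 13 and 0, 6 and 2, 12 and 2, 8 and 2, 5 and 4, and 11 and 8 in the same order, where 27.2% of all genes were higher and 25.4% lower. The median of the disulfide formation genes was 0.15 in controls and −0.01 in cKO, against 0.04 over all genes in each.

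The genes with the profile most like that of Qsox1 were found as those with the smallest root mean square difference of log2 CPM, each gene centred on its own mean over the 15 libraries, among 12148 genes. They were Sh3tc1 (0.149), Ltc4s, the leukotriene C4 synthase (0.152), Pcx, pyruvate carboxylase (0.171), Rce1, a protease that trims prenylated proteins (0.178), and Enpp2, autotaxin (0.186), where the median gene had a difference of 0.558. Pcx, the most abundant of them, stood at 881 CPM in tPVAT controls, 1600 in tPVAT cKO, 1270 in aPVAT controls and 1710 in aPVAT cKO. All 5 had their lowest group mean in tPVAT controls, which the choice by likeness sets. The points share libraries and their scaling, so the likeness is a description.

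**Figure D4:**
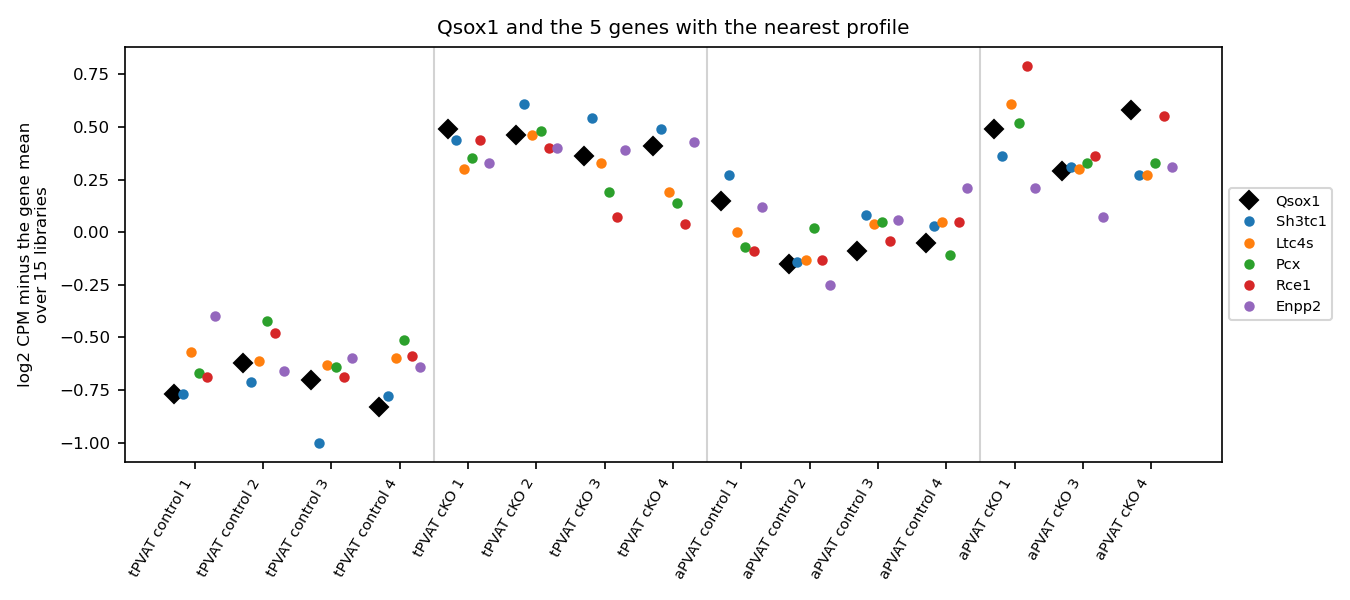
Log2 CPM minus the mean over 15 libraries (vertical axis) in each library (horizontal axis, by group and number) for Qsox1 (diamonds) and the 5 genes nearest to it (circles). All 6 genes lie below their mean in the 4 tPVAT controls and above it in the 4 tPVAT cKO and the 3 aPVAT cKO libraries.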

How the data were processed

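Per the submitters' labels, frozen pulverised tissue was lysed in TRIzol, RNA was column-purified, and a stranded mRNA kit was used. The authors deposited raw counts (whole numbers, not normalized) of 43352 Ensembl genes in 15 libraries with totals of 37.8 to 68.7 M. The submitters' processing notes name mm10, Salmon, Subread and DESeq2 1.42.1 with no role for each. The counting tool, the annotation and the strand setting are not stated there. No aPVAT cKO library numbered 2 was analysed here.

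GENCODE M21 on GRCm38 gave symbols, coordinates and exon lengths for 42468 identifiers (98%). RefSeq (GRCm38.p6) gave the promoter sequences. After filterByExpr (minimum count 10) 19645 genes remained. Libraries were scaled by TMM and fitted in R 4.3.3 with edgeR 4.0.16: all 15 libraries entered a single quasi-likelihood fit with 4 group means, and F tests of the contrasts were adjusted by Benjamini-Hochberg over all genes tested (threshold 0.05). The SE is the log2 fold change over the square root of F, without its sign. The fit was tested on simulated data. Alternatives covered other scalings, filters, samples, replicate blocks, DESeq2 1.42.0 and limma 3.58.1 (voom with quality weights).

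For tPVAT samples of the same number, deviations from the group means correlated across genotypes at 0.27, 0.271, 0.396 and 0.107. The rule used for a pairing, over 0.1 in every pair, was met. The highest correlation of each control with a cKO sample of another number was 0.0222, 0.172, 0.316 and 0.289, above its own number for number 4. The rule leaves these out, so it cannot tell a pairing from likeness of unmatched samples. These correlations come from the data, not from the labels. The fit above has no block, and the fit with the number as a block is an alternative, given beside a tPVAT result where it changed a call. In the other group pairs not every correlation was above 0.1.

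Named genes are the 10 members, up to 4 genes per list and contrast with the smallest p past the threshold, every gene of a count up to 5, the 5 nearest to Qsox1 (mean log2 CPM of at least 1, prior count 2, no predicted genes), and Prdm16, Adipoq and Ucp1. The members and gene lists were chosen with earlier results of these data known. Of further marker lists, edgeR called 1 of 8 thermogenic genes (lower), 1 of 4 cartilage genes (lower) and 1 of 8 Schwann cell genes (higher) in cKO of tPVAT, and 4 of 8 (lower), 0 of 4 and 1 of 8 (higher) in cKO of aPVAT. It called 0 of 8 macrophage, mesothelium, lymphocyte and skeletal muscle genes each in both depots. Of these, 0, 0, 0 and 1 had an unadjusted p under 0.05 in tPVAT and 7, 0, 3 and 3 in aPVAT. DESeq2 called 0, 0, 0 and 0 in tPVAT and 5, 0, 0 and 1 in aPVAT. Their median log2 changes in aPVAT were −0.49, −0.03, −0.65 and 0.75 in that order, against −0.01 over all genes. Macrophage markers summed to 705 to 968 CPM in aPVAT controls and 491 to 719 CPM in aPVAT cKO.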

Additional observations from a re-analysis of the deposited data

Results flagged for a closer look

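The genotype effect on Qsox1 differed between the depots by a test of the difference itself: the aPVAT effect minus the tPVAT effect was −0.67 (log2, SE 0.114, edgeR quasi-likelihood F test, adjusted p = 0.00741). Every cKO library was above every control library in both depots, so the effects had the same direction and differed in size. Over the 25 alternatives tried the difference was −0.77 to −0.59, with an adjusted p of at most 0.0474. No library of a group of 4 stood apart from the others by the gap test used in any of the 30 sets of values (10 genes, 3 groups).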

How the results depend on the processing

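Qsox1 and Loxl1 in tPVAT kept their direction and their call in all 25 alternatives (1.13 to 1.20 and −0.55 to −0.43). With only the libraries of the compared groups in the fit, 3726 genes were called for genotype in tPVAT (54.8% higher, against 45.2% of 2367) and 92 in aPVAT (against 301), where the edgeR test then called 0 members (the call of Qsox1 was lost, adjusted p = 0.0708; 2 members, Qsox1 and Loxl1, had an unadjusted p under 0.05 there, and DESeq2 and voom on all libraries called 1). Quality weights gave 4080 calls in tPVAT, and DESeq2 gave 604 in aPVAT and, for the interaction, 350 (30.3% higher, against 20.1% of 154). Leaving out 1 library at a time gave 161 to 398 calls in aPVAT, lowest without aPVAT cKO 1, and 3 to 6 members between depots of controls, lowest without tPVAT control 3. Between depots of cKO, 4 members were called with the number and 4 with the animal (genotype and number) as a replicate block, against 2, with Loxl2 and Loxl4 added. With the replicate block the number of genes called stayed within 1.5 times of the main count in every comparison, and among the members' genotype values only the call of Plod1 in tPVAT changed (adjusted p = 0.0501); not every sample correlated best with its own number. With the longest transcript as length, the rank of Qsox1 among the 10 genes was 3 in aPVAT controls, 1 in aPVAT cKO and 1 in tPVAT cKO.

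Signs turned only for values that passed no test. With upper quartile scaling the depot values were 0.08 for Lox in controls and 0.04 for Plod2 in cKO. The depot value of Qsox2 in controls was −0.01 with DESeq2, with its size factors in edgeR, with the animal block and without mitochondrial and structural RNA genes, −0.02 with quality weights and −0.04 with only controls. With quality weights, Loxl3 was −0.02 between depots of controls and 0.02 for genotype in aPVAT, and the interaction of Loxl4 was −0.02. With the number as a block, Lox was 0.02 and Loxl4 0.07 for genotype in aPVAT. Without the 2 libraries with the most structural RNA these were 0.15 and 0.08, the depot values in cKO were −0.03 for Qsox1 and −0.01 for Qsox2, and the interactions were −0.03 for Plod1 and −0.07 for Qsox2.

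Leaving out 1 library at a time also turned signs. Between depots of cKO the ranges were −0.02 to 0.35 for Lox, −0.03 to 0.10 for Qsox1 and −0.01 to 0.09 for Qsox2. Between depots of controls they were −0.22 to 0.10 for Lox, −0.02 to 0.23 for Loxl3 and −0.03 to 0.05 for Qsox2. For genotype in aPVAT they were −0.25 to 0.07 for Lox, −0.20 to 0.06 for Loxl3 and −0.32 to 0.21 for Loxl4, and in tPVAT −0.11 to 0.16 for Loxl2, −0.23 to 0.11 for Loxl4 and −0.09 to 0.01 for Plod2. For the interaction they were −0.01 to 0.20 for Loxl1, −0.03 to 0.22 for Loxl3, −0.23 to 0.30 for Loxl4 and −0.03 to 0.08 for Qsox2. The cause was not tested for any of these. Depth limits Loxl4 most, with 71 to 375 counts per library.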
